A study of Zea mays with 32 samples.

Results

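Slices 5 and 6 of the maize root were compared with slices 2 and 3, which lie nearer to the tip, to describe how expression changed within the front of the root once the tip slice was left out. The libraries were chosen by slice number from the labels, and made up 8 of the 32 libraries of the series. One side held slices 5 and 6 of root A and root B, and the other held slices 2 and 3 of the same roots, with 4 libraries each. All of them came from Zea mays of the inbred line B73, wild type, at 7 days after germination, kept on germination paper (12 h light, 26 °C), and the labels name no treatment. The 2 roots were pinned side by side and cut by hand from the tip backwards into 16 slices, so libraries are written here by slice and root (5A is slice 5 of root A), and slices from one root share that root. The labels place no slice in a developmental zone. Slices 1, 4 and 7 to 16 entered neither side, and the levels there were used to follow the same genes along the root.

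A root grows from its tip. Cells divide in the meristem behind the cap, then stop dividing, elongate and begin to differentiate as newer cells push the tip forward, so a slice farther back holds older cells. Transcripts of the cap and meristem are therefore known to give way to those of elongation and differentiation over a short distance. The measure here was RNA-seq of whole slices, in which fewer cells of a type and less RNA per cell cannot be told apart. The gene identifiers carry no names in the deposited table, and 0 of 39510 matched the reference table of maize genes. No gene could therefore be given a function, the slices could not be set against markers of cell types, and only 4 genes are given by identifier.

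The libraries of slices 5 and 6 held 1669781 to 1896658 counts and those of slices 2 and 3 held 1008082 to 1224733, so the sides did not overlap in depth, and the part of depth in the results was not tested. At a common depth of 1000000 counts, slices 5 and 6 held 19289 to 19840 genes and slices 2 and 3 held 18475 to 19746 (means of 19525.8 ± 250.7 and 19414 ± 626, SD, n = 4 libraries each; exact permutation test over libraries, two-sided p = 0.886). The 10 most abundant genes took 7.76% to 8.83% of the counts in slices 5 and 6. In slices 2 and 3 they took 7.98% to 16.3%, with the 2 highest shares in slice 2. That difference of −3.64 percentage points was not past the threshold (exact permutation p = 0.0857, 0.257 after Benjamini-Hochberg adjustment over 3 measures; the smallest p this shuffling allows is 0.0286). Each exact permutation test here shuffled the 8 libraries freely. It thus took slices of the same root as independent and ignored the pairing by root. CPM below stands for counts per 1000000 counts. Between the roots, log2 CPM of the same slice correlated across genes at 0.931 in slice 5, 0.932 in slice 6, 0.832 in slice 2 and 0.882 in slice 3, which describes similarity only, since genes are not independent replicates.

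Expression differed between slices 5-6 and slices 2-3 in 333 genes, and the changes of the genes that fell were the larger ones. In slices 5 and 6, 114 genes were higher and 219 were lower, out of 19587 tested (1.7% in all, 0.582% higher and 1.12% lower; edgeR quasi-likelihood test, Benjamini-Hochberg adjusted p under 0.05). The genes that fell had a median level of 1.85 CPM in slices 5 and 6 and 45.5 CPM in slices 2 and 3. The genes that rose had a median of 99.3 CPM in slices 5 and 6 and 21 CPM in slices 2 and 3, so the median gene was already present nearer the tip. By the ratio of summed counts, with a side of no counts set to 3 counts, the median change was 18-fold for the genes that fell and 3.75-fold for those that rose. At least 8-fold changes were found for 156 of the 219 genes that fell and for 26 of the 114 that rose. The fitted median log2 changes were −4.06 and 2.18, against 0.11 over all genes tested.

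**Figure D1:**
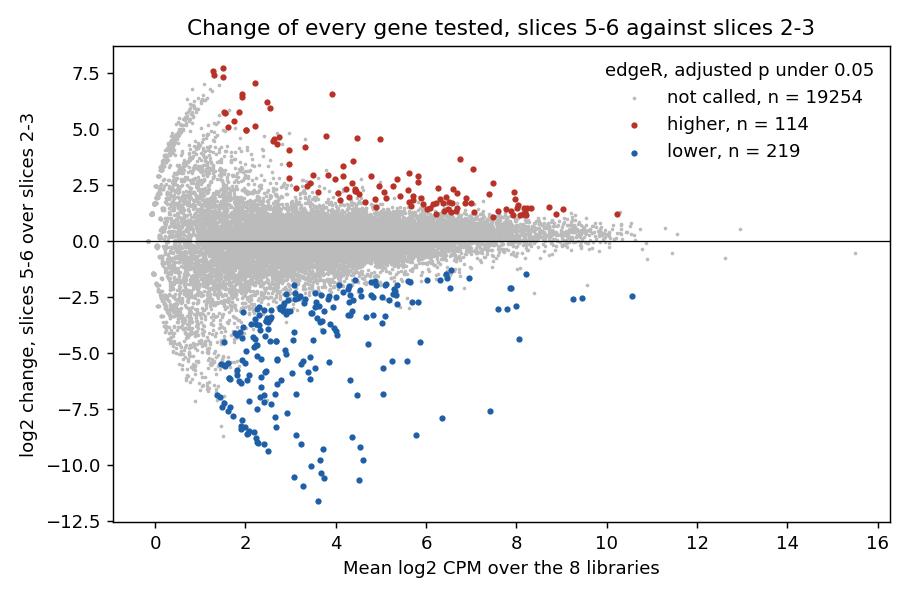
Each point is 1 of the 19587 genes tested, with its mean log2 CPM over the 8 libraries on the x axis and its fitted log2 change, slices 5-6 over slices 2-3, on the y axis; red and blue mark the 114 higher and 219 lower genes. The lower genes reach a log2 change of −11.58, and the higher ones 7.72.

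How many genes passed depended on the libraries and the scaling. Library 8A showed 8262 genes at the common depth, the lowest of the 32 libraries, and enters the fit through the shared estimate of the spread. Without it, 312 genes were higher and 295 lower, which took in 331 of the 333 genes and made the directions nearly even. With DESeq2's size factors, which moved the median of all genes by −0.21 (log2), 73 genes were higher and 296 lower. With the 8 libraries fitted alone, one group per slice, the counts were 433 higher and 639 lower, 320 of the 333 among them. With the same libraries as 2 groups of 4, 308 were called, 197 of them lower, and 177 of the 333 were among these; with root as a block as well, 165 were higher and 275 lower, and 193 of the 333 were among these.

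Leaving out 1 library of the comparison gave 161 to 262 genes. The count was 199 without 2B, 161 without 3A, 220 without 5A, 170 without 5B, 184 without 6A and 199 without 6B. The genes that rose were 72 without 2A, 47 without 2B, 52 without 3A, 57 without 3B, 49 without 5B, 65 without 6A and 74 without 6B. The genes that fell were 109 without 3A, 140 without 5A, 121 without 5B, 119 without 6A and 125 without 6B. The fitted median change moved with the genes that passed. For the genes that fell it was −4.88 without 2B, −4.64 without 3B, −5.96 without 5A, −5.4 without 5B, −6.23 without 6A and −5.68 without 6B, and it was −2.34 with the 8 libraries alone as 4 slices.

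The genes that fell took up a large share of the RNA near the tip and almost none of it in slices 5 and 6. Together the 219 genes held 22.2% of all counts in slice 1 of root A and 18.6% in slice 1 of root B. Those 2 libraries were on neither side, and entered the fit through the filter, the scaling and the shared estimate of the spread. Slice 2 gave them 6.96% in root A and 6.67% in root B. By slice 3 the shares were 2.85% and 1.42%, and by slice 4 0.741% and 0.533%. Slice 5 followed with 0.548% and 0.36%, then slice 6 with 0.282% and 0.328%. The share thus dropped at every slice from 1 to 6 in each root. From slice 7 to slice 16 it stayed between 0.334% and 1.11%. The 114 genes that rose held 0.721% of 1A, 0.635% of 1B, 0.622% of 2A, 0.607% of 2B, 1% of 3A and 0.991% of 3B. Their shares were 1.39% of 4A, 1.5% of 4B, 1.89% of 5A, 2.12% of 5B, 2.58% of 6A and 2.53% of 6B. Their share was highest in slice 10 of root B, at 4.98%, and was 3.61% and 3.62% in slice 16.

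On the log2 scale, most of the fall came by slice 4. Between slices 2 and 3 the median of the 219 genes dropped by 2.12 on the log2 scale, between slices 3 and 4 by 1.54, and between slices 4 and 5 and slices 5 and 6 by 0.47 and 0.32. The rise of the 114 genes was spread more evenly, with median steps of 0.71, 0.7, 0.69 and 0.44 (log2) in the same order. Low counts shrink the later steps of the fall, since log2 CPM used a prior count of 2. Of the 219 genes, 59 had no count in either root in slice 5 or in slice 6. How much this shrank the steps was not tested. The order of the 5 slices was the same for many single genes: 108 of the 219 genes (49.3%) were lower at every step from slice 2 to slice 6, and 76 of the 114 (66.7%) were higher at every step. Over all genes tested these shares were 2.26% and 3.92%. Slices 2, 3, 5 and 6 chose the genes, so these counts describe the called genes and support nothing.

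Slice 4, which was in neither side, lay between the sides for most of the called genes. Its mean log2 CPM was between those of slices 5-6 and slices 2-3 for 110 of the 114 genes that rose (96.5%) and for 176 of the 219 that fell (80.4%), against 34.5% of all genes tested. For 11 more genes that fell, slice 4 was equal to slices 5-6 (within 1e-06 on the log2 scale). A wider gap between the sides leaves more room between them, and no test was made. The other 32 genes that fell were each lower in slice 4 than in slices 5 and 6. In the median gene that fell, slice 4 had completed 77.3% of the log2 change, and in the median gene that rose, 54.5%. Over all genes tested, for which slice 4 often lay outside the sides, the median was 72.5%.

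**Figure D2:**
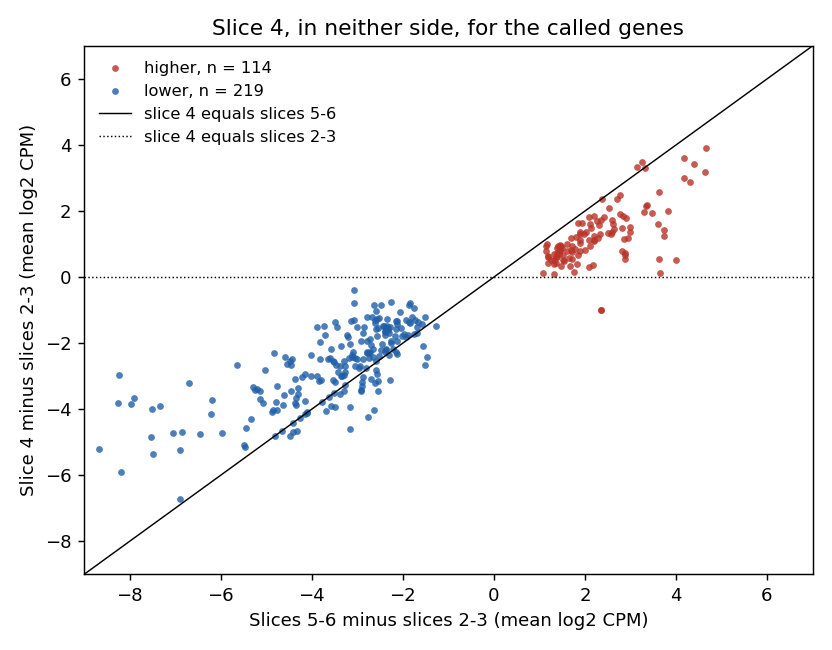
For each called gene, the mean log2 CPM of slice 4 minus that of slices 2-3 (y axis) is plotted against slices 5-6 minus slices 2-3 (x axis). Points between the dotted line and the diagonal have slice 4 between the sides, as 110 of 114 higher (red) and 176 of 219 lower genes (blue) do; 11 lower genes lie on the diagonal.

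Slice 2 carried more of the difference than slice 3. Against slice 2 alone, slices 5 and 6 differed in 987 genes, 143 higher and 844 lower. Against slice 3 alone they differed in 52 genes, 8 higher and 44 lower (same fit and test, chosen after the data were seen). These comparisons share the libraries of slices 5 and 6, and each rests on 2 libraries nearer the tip.

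The genes that fell were split into 2 groups by whether slice 1 was above slice 2. The split cuts a continuous value, with genes close to it on both sides (−0.01 for Zm00001d051550 and 0.09 for Zm00001d020780, log2). In 146 of the 219 genes (66.7%), slice 1 was above slice 2, and in 128 of them this held in each root. Over all genes tested the share was 38.7%, and 4643 of 19587 had it in each root. Among the genes each alternative called lower, the share ran from 49.6% (8 libraries alone as 4 slices) to 92.5% (root A alone). The median of these 146 genes, centred per gene on the 8 libraries, was 4.92 (root A) and 4.56 (root B) for slice 1, then 2.79 and 3.2 for slice 2, 1.3 and 0.31 for slice 3, −0.79 and −1.29 for slice 4, and −1.96 and −1.81 for slice 6. The split set slice 1 above slice 2, and the choice of genes set slices 2-3 above slices 5-6. The descent from the tip therefore describes these genes and supports nothing. The other 73 genes stood low in slice 1, with medians of −0.66 in root A and −0.34 in root B, reached 2.15 and 2.5 in slice 2, and fell to 0.61 and 0.6 in slice 3 and −1.62 and −1.74 in slice 6. Of these 73, slices 2 or 3 were the highest of all 16 slices for 71, against 3045 of the 19587 genes tested. The choice of genes and the split largely fix that slices 1, 5 and 6 were not the highest. At the common depth 1A had 13740 genes and 1B had 17487, fewer than any library of slices 2 to 6, and the part of this in the split was not tested.

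**Figure D3:**
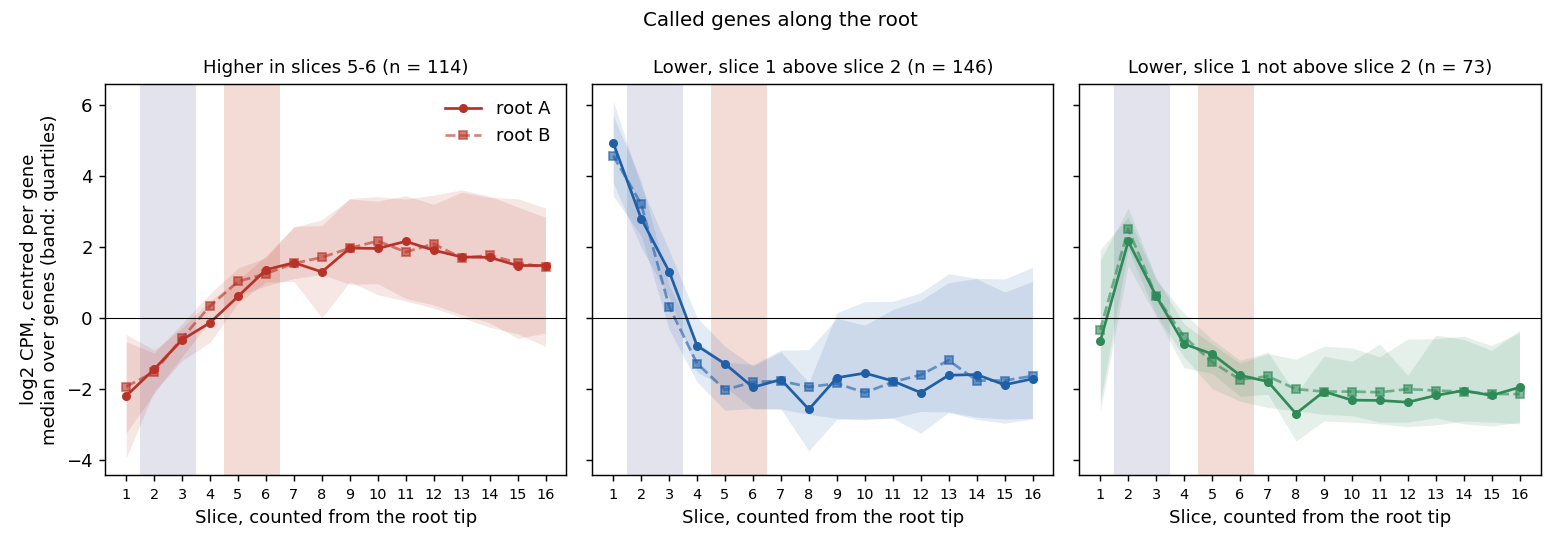
Median log2 CPM, centred per gene on the 8 libraries, of the called genes in each slice, with the quartiles as bands, for root A (solid, circles) and root B (dashed, squares). Red shading marks slices 5-6 and grey-blue shading slices 2-3. The median of the 114 higher genes is highest behind slice 9, that of 146 lower genes in slice 1, and that of the other 73 lower genes in slice 2.

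A comparison with no library of slices 2, 3, 5 or 6 on its sides followed the same genes between the tip and slice 4. It came from the same fit, so each gene's estimate of the spread was shared. A gene of low spread is more readily called in both. In slice 4 against slice 1, chosen after the data were seen, 165 of the 219 genes that fell were called lower (75.3%, against 11.2% of all genes tested) and 10 were called higher (against 11.7%), with a median log2 change of −4.9 against 0.22 over all genes. The 2 groups differed there, as a split made on slice 1 would have it: 145 of the 146 were lower and 0 higher, and of the 73 genes 20 were lower and 10 higher, with a median of −0.47. Of the 114 genes that rose, 48 were called higher there (42.1%) and 6 lower, with a median of 2.87. Under edgeR's older dispersion step, 157 of the 219 were lower and 61 of the 114 higher. Over all 19587 genes, that step called 1544 lower and 2040 higher. Over all genes the comparison called 4492 genes (22.9%), 2375 without 1A, 2500 without 4A and 2710 without 4B.

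A minority of the genes that rose passed a test of a further rise behind slice 4. Slice 7 against slice 4 also has none of the 8 libraries on its sides, but shares the fit and its estimates of the spread. In it, 30 of the 114 genes were called higher (26.3%, against 0.597% of all genes tested) and none lower (edgeR; 109 of the 114 changes were above 0). Their median log2 change was 1.37, against 0.01 over all genes. Of the 219 genes that fell, 9 were called lower (4.11%, against 0.102% of all genes) and 1 higher, with a median of −1.15. Calls in this comparison were few and rested on every one of its libraries: 137 genes in all (0.699%), 6 without 4A, 21 without 4B, 24 without 7A and 32 without 7B. With root as a block it called 218 genes, and without 8A 387. Slices 9-10 against slice 7 called 19 of the 114 genes higher (16.7%, against 2.79% of all genes) and 5 lower (4.39%, against 3.32%). With the older dispersion step these counts were 7 and 3, against 238 and 250 of all 19587 genes tested. The 219 genes that fell had a median of 0 there, with 11 called higher and 3 lower. That comparison called 1197 genes in all (6.11%), 1832 with root as a block, 488 with the older dispersion step, 2304 without 8A, 237 without 7A, 202 without 7B, 572 without 9A, 695 without 10A and 712 without 10B.

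Farther back the genes that rose were highest in different slices. Of the 114, slices 5 to 8 were the highest for 38, slices 9 to 12 for 42 and slices 13 to 16 for 34. Over the 19587 genes tested these counts were 3782, 3776 and 4813. None of the 114 was highest in slices 1 to 4, which the choice of genes largely fixes for slices 2 and 3. Their median was at 1.55 and 1.53 in slice 7 of roots A and B, 1.96 in slice 9 of each root and 1.47 and 1.42 in slice 16. In slices 13 to 16, 77 of the 114 were nearer to their level in slices 5 and 6 than to that in slices 2 and 3, and 16 (14%) had dropped below slices 2 and 3. Over all genes tested, 10220 of 19587 were nearer to slices 5 and 6. Beyond slices 2 and 3, on the side away from slices 5 and 6, lay 41.2%.

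The 4 genes with the highest and lowest changes, among 90 higher and 142 lower genes that met the rule for naming, show both directions at the level of single libraries. Zm00001d002035 had 16, 13.9, 31.9 and 21.5 CPM in slices 5 and 6 (5A, 5B, 6A and 6B) and 0, 0, 0 and 0.71 CPM in slices 2 and 3 (2A, 2B, 3A and 3B). The sides did not overlap, as for 98 of the 114 genes that rose (7.27% of all genes tested were higher with no overlap). It had 164 counts against 1, which is 111.8-fold more (95% counting interval 19.8 to 4441.4). The fitted log2 change was 7.05 ± 1.15 (SE; adjusted p = 0.000264 in edgeR), which depends on the prior count because slice 2 held no count. It was at 7.16 and 6.35 CPM in slice 4 of roots A and B, at 106.4 and 99.7 CPM in slice 7, and between 116.2 and 353.8 CPM in slices 9 to 16. In slice 8 it was at 14.4 CPM in root A and 127.3 CPM in root B. Slice 7 stood above slice 4 by a fitted 3.93 ± 0.72 (log2, SE; adjusted p = 0.00451 in edgeR).

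Zm00001d002503 differed in level between the roots. It had 36.5 and 56.8 CPM in slices 5 and 6 of root A, against 0 and 2.7 CPM in slices 2 and 3. In root B it had 118.7 and 126.6 CPM in slices 5 and 6, against 0 and 27 CPM in slices 2 and 3. Root B was the higher root in each slice in which the gene had a count, apart from slice 16. By summed counts it was 11.1-fold higher in slices 5 and 6 (687 against 42 counts, counting interval 8.16 to 15.6; edgeR, adjusted p = 0.00105). The fitted log2 change of 6.53 ± 1.17 (SE) is larger because slice 2 held no count. Against slice 3 alone it was 2.52 and not called (edgeR, adjusted p = 0.5). Slices 9-10 against slice 7 gave −0.09 ± 0.67 (log2, SE) and no call (adjusted p = 0.986 in edgeR). Root B held 151.2 CPM in slice 9 and 83.2 CPM in slice 10, against 90.6 CPM in slice 7, and root A held 41.2 and 31.8 CPM, against 70.1 CPM. As 2 groups of 4 libraries the main change was 3.33 and not called (edgeR, adjusted p = 0.102).

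Zm00001d002150 had no count in the 4 libraries of slices 5 and 6, against 263.2, 395.8, 130.4 and 50.4 CPM in slices 2 and 3 (2A, 2B, 3A and 3B). With 3 counts over slices 5 and 6 as the floor, 0 against 1127 counts made it at least 551.2-fold lower (edgeR, adjusted p = 1.15e-09). In slice 4 it stood at 11.1 CPM in root A and 7.93 CPM in root B, against 2634.3 and 3250.3 CPM in slice 1. Slice 4 was below slice 1 by a fitted −8.28 ± 0.76 (log2, SE; adjusted p = 1.75e-08 in edgeR). Behind slice 6 it was at most 3.4 CPM.

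Zm00001d049247 ran the same way, with no count in slices 5 and 6 and with 205.2, 345.5, 58.8 and 26.3 CPM in slices 2 and 3. It was at least 415.2-fold lower in slices 5 and 6 by the same floor (0 against 849 counts; edgeR, adjusted p = 7.06e-08). As 2 groups of 4 libraries it was not called (edgeR, adjusted p = 0.0552). Its level in slice 4 was 2.6 CPM in root A and 3.7 CPM in root B, against 954.7 and 919.2 CPM in slice 1. These were 2 of 23 genes that fell with no count in slices 5 and 6 (7008083 counts in all), 22 of which averaged at least 10 CPM in slices 2 and 3. Their lower bounds ran from 18.6-fold to 551.2-fold. In the other direction, 4 genes that rose had no count in slices 2 and 3 (4539355 counts in all), with bounds of 16.1-fold to 26.6-fold. Among the genes that fell, the sides did not overlap for 175 of 219 (3.41% of all genes tested were lower with no overlap).

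**Figure D4:**
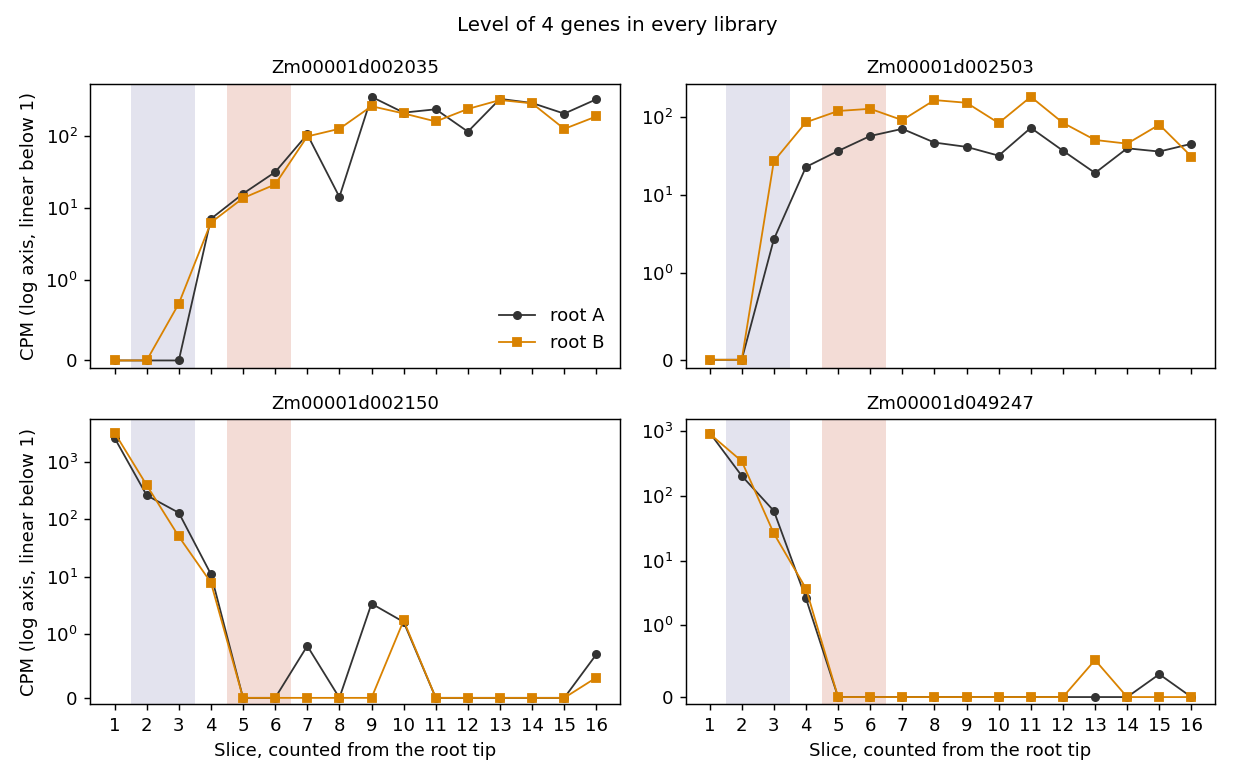
CPM of 4 genes in each of the 32 libraries (log axis, linear below 1) by slice, for root A (circles) and root B (squares), with red shading on slices 5-6 and grey-blue on slices 2-3. The upper genes have no count in slices 1 and 2 and rise from slice 3 or 4 on, and the lower genes drop from slice 1 to no count in slices 5 and 6.

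The 2 roots gave changes of the same direction for all 333 called genes, against 65.2% of all genes tested. A gene is more readily called where its roots match. The genes that rose had a median change of 2.01 in root A and 2.2 in root B (difference of mean log2 CPM), and those that fell −3.12 in root A and −3.15 in root B. The change was larger in root A for 46 of the 114 and for 112 of the 219. The courses were offset in the middle slices. The 146 genes that descend from the tip were lower in root B than in root A in slices 3, 4 and 5, at 0.31, −1.29 and −2.03 against 1.3, −0.79 and −1.3, and higher in root B in slice 2. The genes that rose were higher in root B in slices 4 and 5, at 0.33 and 1.02 against −0.14 and 0.6.

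Each root was also fitted alone, with its 2 slices a side as stand-ins for replicates. Root A called 61 genes (0.453% of 13462), 8 higher and 53 lower, and root B called 0 of 13371, with 1572 and 1421 genes at an unadjusted p under 0.05. All 53 of the root A calls that were also tested in root B had the same direction there, against 66.3% of the 12445 genes tested in both, and 52 had an unadjusted p under 0.05 in root B (10.6% of all genes tested in root B had one; edgeR). The genes called lower in root A had a median fitted log2 change of −5.01 in root A and −5.77 in root B. Tested directly, the change differed between the roots in 0 of 15255 genes, with 392 at an unadjusted p under 0.05 (edgeR); DESeq2 also called 0, with 249 at that level. Each side of that test is 1 root, so it compares these 2 roots only. Here too the 2 slices a side stood in for replicates, so differences between neighbouring slices entered its spread. Its 0 calls do not show that the roots changed alike.

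**Figure D5:**
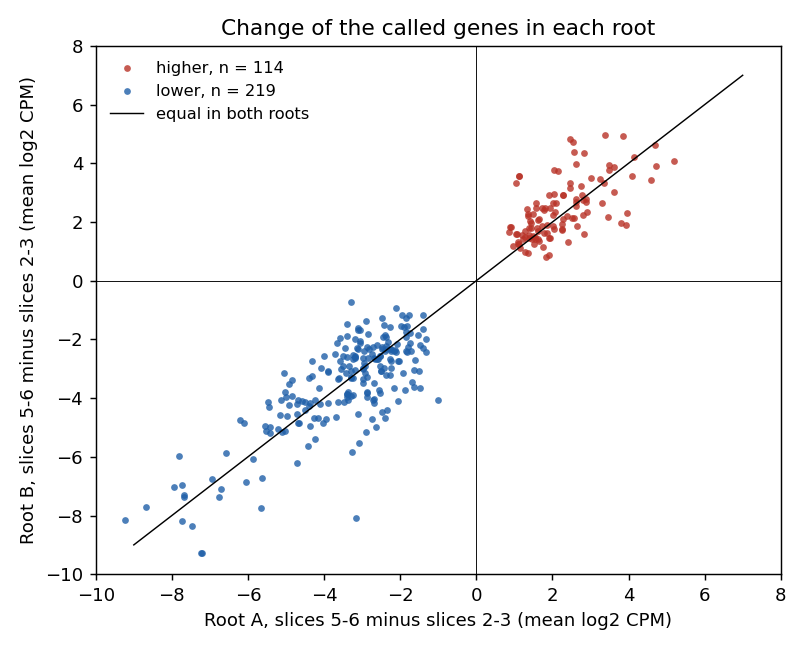
Change of each called gene, slices 5-6 minus slices 2-3 in mean log2 CPM, in root A (x axis) and root B (y axis), with the line of equal change. All 114 higher genes (red) lie above 0 and all 219 lower genes (blue) below 0 in both roots.

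For most genes the comparison limits the change without fixing it closely. Among the 11173 genes that averaged 10 CPM or more in these 8 libraries, the median SE of the log2 change was 0.52 and 281 genes were called. The 95% interval of the change lay within 2-fold in either direction for 897 of them (8.03%) and within 4-fold for 9129 (81.7%). A gene that was not called is therefore not shown to be at the same level on both sides.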

How the data were processed

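The authors deposited whole-number counts per gene for 39510 identifiers and 32 libraries, 39336 of them of the Zm00001d series and 174 of the GRMZM5G series. Per the labels' protocols, a Qiagen RNeasy Micro kit gave the RNA and the Ovation RNA-Seq System V2, which amplifies cDNA, the libraries; no molecular identifiers are mentioned, so intervals and floors cover counting error only. The tools named per the submitters' processing notes are DESeq2, kallisto 0.43 and Trimmomatic. Not given in the sources used here: their roles, the genome build, the annotation, the use of strand and any rounding. If kallisto made the counts, reads of near-identical genes are divided by estimation, and such copies could not be looked up for the genes named. Libraries were assigned from their titles, and 0 columns were left without a sample.

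The test was edgeR's robust quasi-likelihood fit with the newer dispersion step (version 4.0.16, R 4.3.3), after TMM scaling and a filter for low genes (filterByExpr on slices, at least 10 counts and a total of 15), with 16 slices as groups over all 32 libraries, 2 per slice. The filter left 19587 genes. The log2 change is the mean of the coefficients of slices 5 and 6 minus that of slices 2 and 3, its SE comes from dividing the absolute change by root F, and adjusted p-values are Benjamini-Hochberg over all genes tested. Levels are CPM with TMM scaling, and log2 CPM used a prior count of 2. DESeq2 1.42.0 was an alternative. Fits that leave out a library kept the 19587 genes. The steps were tested on simulated data, where slices 9-10 against slice 7 made more false calls than its threshold allows. With 2 roots pinned and sliced side by side, p-values cover the spread between those roots and nothing wider.

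The letters pair the samples, since they mark the same 2 roots in every slice per the labels. Deviations of the libraries from their slice means correlated at 0.168 to 0.341 over the 6 pairs of the 4 slices.

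The rule for naming took adjusted p under 0.05, a 2-fold change or more, an average of 10 CPM or more, no overlap between the sides and a gene name; without names, it allowed the 2 highest and 2 lowest changes. The gene and marker lists were not tested for want of names. The comparison, lists and rules were chosen with earlier results of these data known.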

Additional observations from a re-analysis of the deposited data

Results flagged for a closer look

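Among 18 sets of 4 libraries checked for a library far from the other 3, slice 3 of root B stood apart in 3; chance flags about 1 in 20 such sets. Thinned to 1000000 counts, it showed 18475 genes where the other 3 showed 19710 to 19746. Zm00001d002503 was at 27 CPM in it, against 0 to 2.7 CPM in the others. Zm00001d002035 was at 0.71 CPM, which is 1 count, against 0 in the others. Any single count against 0 would be flagged, so the rate of 1 in 20 does not hold for that set. Without slice 3 of root B, 57 genes were higher and 171 lower.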

How the results depend on the processing

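Against 333 genes (114 higher, 219 lower), DESeq2 called 525 (160 and 365), the 8 libraries alone as 4 slices 1072 (433 and 639), as 2 groups of 4 308 (197 lower), with the replicate block 440 (165 and 275), the fit without slice 8 of root A 607 (312 and 295) and the fit without slices 1, 8 and 12 of root A, chosen after the data were seen, 1017 (565 and 452). DESeq2's size factors gave 73 and 296, and genes of at least 10 CPM 75 and 216. Root A alone gave 61 (8 and 53) and root B alone 0. Against slice 3 alone there were 52 (8 and 44), and against slice 2 alone 987 (143 and 844). Paired by root, with a replicate block, the count was 441 (158 and 283); apart from the counts for slice 7 against slice 4 and slices 9-10 against slice 7 below, no other count moved past 1.5 times with it, and the 4 named genes kept their calls. Leaving out 1 library gave 161 to 262 genes, 47 to 80 higher and 109 to 190 lower, and 0 to 3 for the difference between the roots (3 without slice 2 of root B).

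Slices 9-10 against slice 7 called 488 genes with the older dispersion step, 1832 with the block, 2304 without slice 8 of root A, 3291 without the 3 libraries, and 202 to 800 with 1 library left out. Slice 7 against slice 4 called 82 with DESeq2's size factors, 90 with upper quartile scaling, 230 with no filter, 291 in DESeq2, 218 with the block, 387 without slice 8 of root A, 847 without the 3 libraries, and 6 to 32 with 1 library left out. Slice 4 against slice 1 called 2375 to 3710 with 1 library left out. The share of called genes with slice 4 between the sides or equal to one, 89.2%, was 83.5% with DESeq2's size factors, 85.2% at 10 CPM or more, 77% in DESeq2, 81.2% with the 8 libraries alone as 4 slices, 98.1% against slice 3 alone, 68% against slice 2 alone, 84.9% without the 3 libraries, and 86.4% to 94.4% with 1 library left out. The median log2 change ran from −6.29 to −2.34 for the genes that fell and from 1.25 to 2.98 for those that rose, over the genes each alternative called. The causes were not tested.

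Of 102 alternatives for the counts of genes and the slice 4 share, 61 stayed within 1.5 times or the share's interval, and of 54 with 1 library left out, 20 did. For the 4 genes named, 91 of 100 alternatives kept the call and direction, 9 kept the direction and lost the call, 4 of them with root B alone and 0 reversed. Depth limits low genes: 3 counts are 0.375 CPM over slices 5 and 6 and 0.55 CPM over slices 2 and 3.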

Other observations

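A part of the genes that fell came back toward the base of the root. In slices 13 to 16, 37 of the 219 genes (16.9%) stood above their level in slices 2 and 3, 30 of the 146 that descend from slice 1 and 7 of the other 73, and 158 of the 219 were nearer to their level in slices 5 and 6. Slices 13 to 16 were the highest of all for 9 of the 219. Over all genes tested, slices 13 to 16 lay beyond slices 2 and 3, on the side away from slices 5 and 6, for 41.2%. They were nearer to slices 5 and 6 for 10220 of the 19587 genes and the highest of all for 4813. No test was made of this difference.

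The 174 identifiers of the GRMZM5G series held 2.34% to 3.77% of the counts in slices 5 and 6 and 1.54% to 3.61% in slices 2 and 3 (means of 2.96% ± 0.606 and 2.53% ± 0.937, SD, n = 4 libraries each; exact permutation test, two-sided p = 0.457, 0.686 adjusted over 3 measures). Of the 140 that were tested, 126 had a log2 change above 0, with a median of 0.47 against 0.11 over all genes, and none was called in edgeR (12 at an unadjusted p under 0.05, which is 8.57%, against 10.6% of all genes tested).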
